A study of Mus musculus with 6 samples.

Results

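The receptor genes Grm3, Grm5, Grm7, Gabbr1 and Gabbr2, whose products read the main excitatory and inhibitory transmitters of the brain through G proteins, were described in single cells sorted from the mouse amygdala. The genes were taken by name, and all 5 are among the 32285 genes of the deposited count tables. Of the 13546 cell barcodes in 3 libraries, 8757 were taken as astrocytes, with at least 20 UMIs (unique molecular identifiers, each marking 1 captured RNA molecule) of the glutamate transporter genes Slc1a2 and Slc1a3 together and at most 3 of the mural cell genes Vtn and Rgs5. Another 2260 were taken as pericytes, the contractile cells that wrap capillaries, with at least 10 UMIs of Vtn and Rgs5 and at most 5 of Slc1a2 and Slc1a3. The remaining 2529 barcodes fell in neither class. Astrocytes were further split by Agt, the gene of angiotensinogen, into 3236 with 3 or more Agt UMIs (Agt-positive) and 2813 with 0 (Agt-negative). The Agt-positive and Agt-negative cells came from the same libraries, and cells with 1 or 2 Agt UMIs lay between them.

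The cells came from wild-type male C57BL/6N mice, young adults by the study's methods. By these methods the amygdala was dissected 90 min after the behavioural paradigm began, and kept in inhibitors of transcription and translation. The cells were sorted with an antibody to ACSA2, an epitope of ATP1B2, and each library pooled several mice that carried hashtag antibodies. The hashtag table listed 4 mice each without shock (NoFC), after fear conditioning (FC), conditioned and kept without recall (NoFR) and after fear recall (FR). All 4 groups shared genotype, sex, tissue and the protocol of dissection and sorting. By the study, NoFR mice stayed in the home cage and were taken a day after conditioning without recall. FR mice returned to the chamber a day after conditioning. NoFR and NoFC mice thus also differ in day and handling, and NoFR mice differ from the other groups in time since their last session.

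Metabotropic glutamate receptors and the GABA-B receptor are class C G protein-coupled receptors, which bind their transmitter in a large extracellular domain and work as dimers. Grm3 encodes mGluR3 of group II, which couples to Gi/o proteins and lowers cAMP and is a well known astrocyte receptor, whereas Grm5 encodes mGluR5 of group I, which couples through Gq to phospholipase C and calcium release and is prominent in young astrocytes. Grm7 encodes mGluR7 of group III, a Gi/o-coupled receptor best known at presynaptic active zones. Gabbr1 encodes the GABA-binding subunit and Gabbr2 the subunit that activates Gi/o, and a working GABA-B receptor needs both.

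The classes were checked with markers that did not define them. In astrocytes, 6 of 7 astrocyte markers were found in more than 50% of cells (Gja1 in 93.4%, Gfap as the lowest in 16.4%), and in pericytes all 5 pericyte markers were found in at least 91.7% of cells (Abcc9 in 96.8%). Atp1b2, the sort antigen, was found in 91.9% of pericytes, whereas Gfap was at 0 there. Summed over 7 neuron markers, astrocytes held 10.1 to 15.2 CPM (the UMIs of a gene per 1000000 gene UMIs of the class) by library and pericytes 2.26 to 4.03. Summed over 3 smooth muscle markers, pericytes held 151 to 209 CPM, and over 3 endothelial markers 134 to 141 CPM, with Myh11 in 25.4% and Flt1 in 36.7% of pericytes but Acta2 in 1.81% and Cldn5 in 0.310%; their part in the pericyte values was not tested. Median depth was 9891 UMIs per astrocyte and 5006 per pericyte. Only 18 barcodes occurred in 2 libraries and 0 in all 3. No doublet caller was run on the classes, and the 101 barcodes that held both marker sets were outside them.

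Grm3 (ENSMUSG00000003974) is on chromosome 5 in the GRCm38 build, between 9485541 and 9725170 on the reverse strand, a span of 239.6 kb. Grm7 (ENSMUSG00000056755) lies on the forward strand of chromosome 6 from 110645581 to 111567230 and spans 922 kb. Grm5 (ENSMUSG00000049583) lies on the forward strand of chromosome 7 from 87584168 to 88134907, Gabbr1 (ENSMUSG00000024462) on the forward strand of chromosome 17 from 37045966 to 37075067 and Gabbr2 (ENSMUSG00000039809) on the reverse strand of chromosome 4, between 46662305 and 46991873. Of these 5 loci only that of Grm7 holds another gene of the count tables, the antisense gene Gm20387, which had 0 CPM in astrocytes and 3.25 CPM in pericytes. The values below cover whole genes, since counts were deposited per gene and not per exon.

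Grm3 and Grm7 were the members with a higher level in pericytes than in astrocytes (below), and the start regions of both are therefore shown, from 250 bases before to 50 after the start in the RefSeq table for GRCm38.p6. Capitals mark the GC-box core GGGCGG, searched on both strands and reading CCGCCC where it lies on the other strand.
Grm3, chr5:9725303-9725602, reverse strand: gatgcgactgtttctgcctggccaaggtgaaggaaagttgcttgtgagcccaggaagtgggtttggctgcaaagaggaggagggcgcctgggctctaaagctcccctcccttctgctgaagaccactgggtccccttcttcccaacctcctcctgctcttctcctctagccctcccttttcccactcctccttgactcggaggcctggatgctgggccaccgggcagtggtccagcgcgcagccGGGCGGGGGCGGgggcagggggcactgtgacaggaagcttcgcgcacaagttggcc
Grm7, chr6:110645348-110645647, forward strand: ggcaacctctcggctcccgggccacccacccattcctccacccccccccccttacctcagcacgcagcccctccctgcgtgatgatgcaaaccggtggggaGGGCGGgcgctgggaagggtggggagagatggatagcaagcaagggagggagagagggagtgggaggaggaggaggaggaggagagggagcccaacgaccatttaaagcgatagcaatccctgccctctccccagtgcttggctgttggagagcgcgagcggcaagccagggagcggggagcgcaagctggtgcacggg
The Grm3 window starts beyond the end of the gene model given above. It holds 11 CG pairs and 2 GC-box cores, and the Grm7 window 15 and 1. A second Grm7 window in the table overlaps the one shown. Over all 32851 windows of this length the median was 7 CG pairs, and 35.7% held a GC-box core. The letters TATAAA were in 13.6% of all windows and in none of the windows of the 4 members that matched the table, Grm3, Grm7, Gabbr1 and Gabbr2. Among these, Gabbr2 had 46 CG pairs, more than 98.4% of all windows, and Gabbr1 had 18. Beside these matches the windows carry no measurement of their own here.

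Grm3 was abundant in both classes. In astrocytes its level was 1279 CPM in library 1, 1258 in library 2 and 1265 in library 3 (mean 1267 ± 10.7, SD, n = 3 libraries), and in pericytes it was 2007, 2023 and 1913 CPM (mean 1981 ± 59.4, n = 3). The level was thus higher in the pericytes of every library, without overlap, and the share of all genes without overlap was not counted. A UMI of Grm3 was found in 95.1% of astrocytes (95% Wilson interval 94.7% to 95.6%) and in 95.2% of pericytes (94.2% to 96.0%). The median astrocyte held 9 Grm3 UMIs and the median pericyte 8. Since pericytes held fewer UMIs in all, the number of Grm3 UMIs per cell went the other way, at 13.3 ± 0.328 per astrocyte and 10.3 ± 0.447 per pericyte (n = 3). After every cell was thinned to 5000 UMIs, which left out 990 astrocytes and 1126 pericytes, the mean was 5.96 Grm3 UMIs per astrocyte and 10.5 per pericyte.

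Grm7 was abundant in pericytes and near 0 in astrocytes. Its level in pericytes was 2132 CPM in library 1, 2362 in library 2 and 2136 in library 3 (mean 2210 ± 131, n = 3), and in astrocytes it was 2.14, 2.10 and 2.66 CPM (mean 2.30 ± 0.313, n = 3). A Grm7 UMI was found in 94.1% of pericytes (Wilson interval 93.0% to 94.97%) and in 2.09% of astrocytes (1.81% to 2.41%), although astrocytes were sequenced more deeply. In astrocytes with the gene, 92.9% held a single UMI, whereas 43.8% of all pericytes held 10 or more. The astrocyte level was 0.0889% to 0.125% of the pericyte level by library. The pericyte markers Kcnj8, Abcc9 and Higd1b stood in astrocytes at 0.0224% to 0.0650% of their pericyte level, Cspg4 at 0.339% to 0.416% and Notch3 at 3.70% to 4.19%. Grm7 in astrocytes thus lay above 3 and below 2 of these markers, and whether its UMIs there came from free RNA was not tested. In the pericytes, Grm3 and Grm7 were found together in 90.0% of cells, Grm3 alone in 5.13% and Grm7 alone in 4.03%. At 5000 UMIs per cell the share of pericytes with both was 94.97%.

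Grm5 was counted in a minority of astrocytes. Its level was 28.9 CPM in library 1, 24.9 in library 2 and 30.6 in library 3 (mean 28.1 ± 2.93, n = 3), and a UMI was found in 11.4% of astrocytes (Wilson interval 10.7% to 12.1%). Thinned to 5000 UMIs the share was 8.07 ± 0.766% (n = 3). The UMIs were unevenly spread, since 495 of 997 astrocytes with the gene had 1 UMI, 33 had 10 or more and the top 1% of astrocytes held 32.3% of all Grm5 UMIs. For Gabbr1 the top 1% of astrocytes held 4.22% and for Grm3 6.64%, whereas for the sparser Grm7 they held 54.1%. This share tends to be larger for sparser genes, and how far it reflects the low level of Grm5 was not tested. Leaving out astrocytes with 2 or more UMIs of the markers of other cell types moved the Grm5 level to 26.9 ± 3.35 CPM (n = 3). In pericytes Grm5 had 7 UMIs in library 1, 2 in library 2 and 0 of 3725828 UMIs in library 3, which allows a level of up to 0.805 CPM. Grm5 and Grm3 were found together in 11.2% of astrocytes, where the product of their single shares was 10.8%, and Grm5 alone in 0.171%.

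Gabbr1 and Gabbr2 were both high in astrocytes and differed in pericytes. The Gabbr1 level in astrocytes was 272, 274 and 286 CPM in the 3 libraries (mean 277 ± 7.89, n = 3), and in pericytes 41.9, 33.6 and 47.2 CPM (mean 40.9 ± 6.86, n = 3). The Gabbr2 level in astrocytes was 350.5, 369.7 and 379 CPM (mean 366 ± 14.5, n = 3), and in pericytes 2.26, 3.96 and 3.49 CPM (mean 3.24 ± 0.874, n = 3). For both genes every library had its astrocytes far above its pericytes, and the share of all genes without overlap was not counted. The share of cells with a Gabbr1 UMI was 86.9% in astrocytes and 18.1% in pericytes, and for Gabbr2 it was 82.3 ± 0.865% and 1.54 ± 0.356% over libraries (n = 3). In pericytes Gabbr2 stood at 0.646% to 1.07% of its astrocyte level by library, where the astrocyte markers Aqp4, Gja1, Aldoc, S100b and Sox9 stood at 0.633% to 2.08%. Gabbr1 stood at 12.3% to 16.5%, above these 5 markers in every library. Of the other astrocyte markers, the sort antigen gene Atp1b2 stood at 79.0% to 85.1% and Gfap at 0. Whether the pericyte UMIs of Gabbr1 and Gabbr2 came from free RNA was not tested. Of the pericytes with a Gabbr1 UMI, 84.1% held a single one and none of 2260 held 5 or more.

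**Figure D1:**
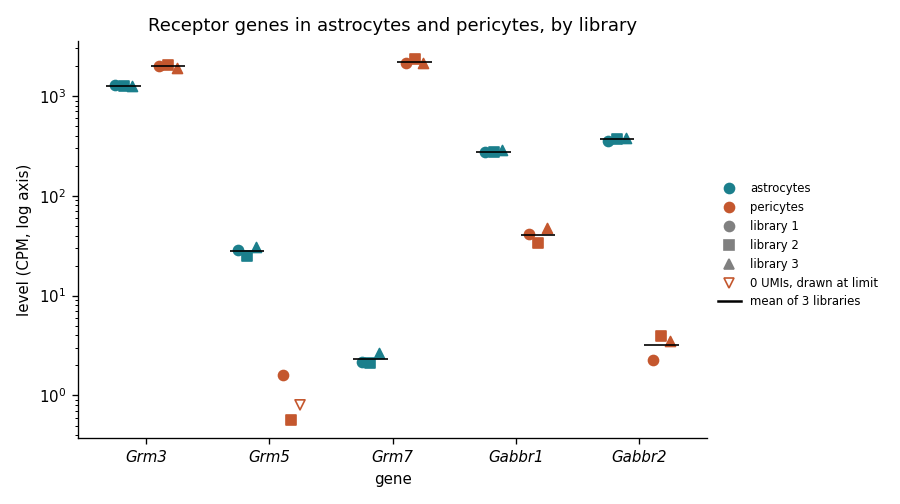
Level of the 5 receptor genes (vertical axis, CPM, logarithmic) in astrocytes and pericytes, 1 point per library with a line at the mean of 3 libraries except for Grm5 in pericytes. Grm3 and Grm7 are higher in pericytes, Grm5, Gabbr1 and Gabbr2 in astrocytes, and the open triangle gives the upper limit of 0.805 CPM for Grm5 in the pericytes of library 3, where it had 0 UMIs.

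To ask how the classes differed over all genes, UMIs were summed per class and library and compared by edgeR's quasi-likelihood test with the library as a block. All 5 members passed an adjusted p of 0.05, as did 79.6% of the 15365 genes tested, so that passing sets the members apart from few genes and the size of the difference is what describes them. The log2 difference of astrocytes over pericytes was −0.43 for Grm3 (standard error 0.053, adjusted p = 3.38e-08) and −9.70 for Grm7 (standard error 0.088, adjusted p = 6.36e-33). Grm5 was higher in astrocytes by 5.39 (standard error 0.26, adjusted p = 6.08e-17), Gabbr1 by 2.97 (standard error 0.074, adjusted p = 1.16e-23) and Gabbr2 by 7.06 (standard error 0.11, adjusted p = 2.80e-28). Standard errors here are the absolute log2 difference over the square root of the F statistic. They may understate counting error where a class holds few UMIs, as pericytes do for Grm5 (9) and Gabbr2 (37). Genes higher in astrocytes made up 42.8% of those tested and genes lower in astrocytes 36.9%. The median log2 difference of all genes was 0.10 after TMM normalization and −0.11 when profiles were scaled by their summed UMIs alone, a setting chosen after seeing the data. The members kept their directions in all 11 alternatives, with Grm3 between −0.81 and −0.36. The lowest value came from cells of 5000 to 12000 UMIs. Grm5, with 9 UMIs in all pericytes, lay between 4.79 (without library 3) and 6.83 (without library 1).

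Levels of different genes were set in order per kilobase of exonic sequence, although tags at the end of a transcript need not scale with its length. In astrocytes the order was Grm3 (416 CPM per kb), Gabbr2 (54.6), Gabbr1 (35.7), Grm5 (2.76) and Grm7 (0.388). In pericytes it was Grm3 (649.9 CPM per kb), Grm7 (374), Gabbr1 (5.29), Gabbr2 (0.474) and Grm5 (0.0752). The order depends on this scale. In CPM without division by length, Grm7 (2203 over all pericytes) came before Grm3 (1981.6), and the order in astrocytes was the same. Per kilobase of the whole gene span, introns included, Gabbr1 came first in astrocytes (9.51 CPM per kb of span), before Grm3 (5.29) and Gabbr2 (1.11), and in pericytes Grm3 (8.27) came before Grm7 (2.39) and Gabbr1 (1.41).

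Both GABA-B subunit genes were found together in 73.4% of astrocytes, Gabbr1 alone in 13.5%, Gabbr2 alone in 8.80% and neither in 4.32%. With every cell thinned to 5000 UMIs, 53.4%, 52.7% and 55.2% of the astrocytes in the 3 libraries held both. The product of the 2 single shares was 52.1%, 52.2% and 53.9%. The share with both was thus slightly above the product in every library. In pericytes, 8 of 2260 cells (0.354%) held both and 17.7% held Gabbr1 alone.

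**Figure D2:**
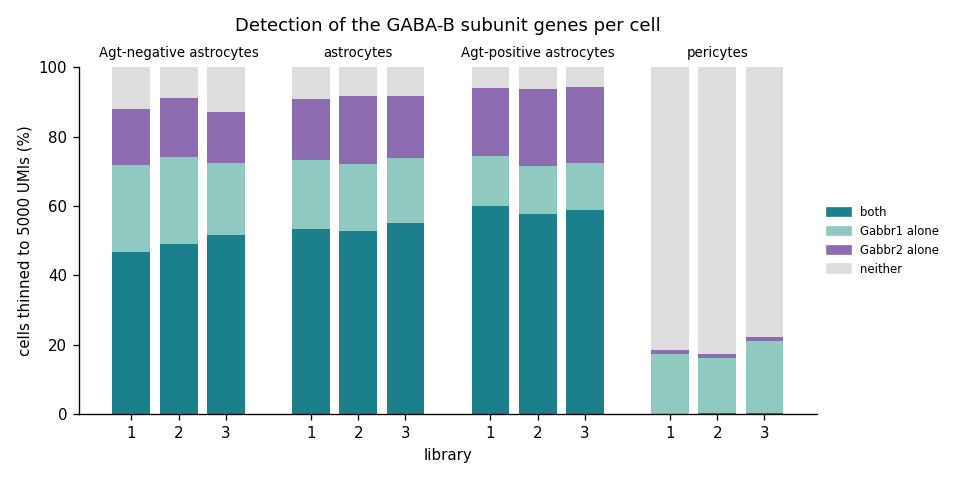
Share of cells with a UMI of Gabbr1, of Gabbr2, of both or of neither (vertical axis, % of cells thinned to 5000 UMIs), 1 bar per library and class. Both subunit genes were found in 52.7% to 55.2% of astrocytes, in 57.7% to 60.1% of Agt-positive and in 46.7% to 51.7% of Agt-negative astrocytes, whereas pericytes mostly held Gabbr1 alone or neither.

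Agt divides astrocytes by a gene that differs between brain regions, and the members were compared between Agt-positive and Agt-negative astrocytes of the same libraries. Grm3 was lower and Gabbr2 higher in Agt-positive astrocytes, whereas Gabbr1 did not pass the test. The Grm3 level was 1024, 1065 and 997 CPM in the Agt-positive astrocytes of the 3 libraries and 1490, 1560 and 1598 CPM in the Agt-negative ones. The Gabbr2 level was 429, 434 and 445 CPM in Agt-positive and 282, 336 and 338 CPM in Agt-negative astrocytes. Neither gene overlapped between the groups, and the share of all genes without overlap was not counted. In the edgeR fit the log2 difference was −0.56 for Grm3 (standard error 0.064, adjusted p = 5.24e-08) and 0.48 for Gabbr2 (standard error 0.066, adjusted p = 1.39e-06), and both passed in all 11 alternatives. Of the 14162 genes tested, 26.5% passed, 12.7% higher and 13.8% lower in Agt-positive astrocytes, and 3 of the 5 members did.

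The third member past the threshold was Grm5, with 31.7, 25.5 and 37.3 CPM in Agt-positive and 31.4, 21.9 and 25.3 CPM in Agt-negative astrocytes. The groups overlapped, and the difference was within 1% in library 1. The fit gave a log2 difference of 0.28 (standard error 0.095, adjusted p = 0.0293 from edgeR), which passed in only 4 of 11 alternatives. Without library 3 it was 0.13 (edgeR adjusted p = 0.528), and among cells of 8000 to 16000 UMIs it was 0.030 (edgeR adjusted p = 0.915). Gabbr1 had 284, 263 and 279 CPM in Agt-positive and 261, 283 and 289 CPM in Agt-negative astrocytes, with a log2 difference of 0.018 (95% interval −0.11 to 0.15, edgeR adjusted p = 0.881). Grm7, at 87 and 66 UMIs in all cells of the groups, differed by −0.0086 (interval −0.56 to 0.54, edgeR adjusted p = 0.987).

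Over finer steps of Agt UMIs the opposite courses of Grm3 and Gabbr2 were graded. The mean Grm3 level over libraries was 1549 ± 54.7 CPM (SD, n = 3) at 0 Agt UMIs, 1314 ± 41.1 at 1 to 2, 1174 ± 32.7 at 3 to 5 and 886 ± 72.7 at 6 or more. It fell at each step in each library. The mean Gabbr2 level was 319 ± 32.0, 323 ± 9.78, 379 ± 15.6 and 494 ± 13.2 CPM over the same steps, with its first 2 values within their spread and a higher level at each later step in every library. Gabbr1 stayed between 273 ± 17.5 and 282 ± 12.5 CPM. Over the 12 profiles of library and Agt step, centred within library, Pearson's r of the log2 levels was −0.90 between Grm3 and Gabbr2 and 0.077 between Gabbr1 and Gabbr2. These profiles share 3 libraries and an order set by Agt.

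**Figure D3:**
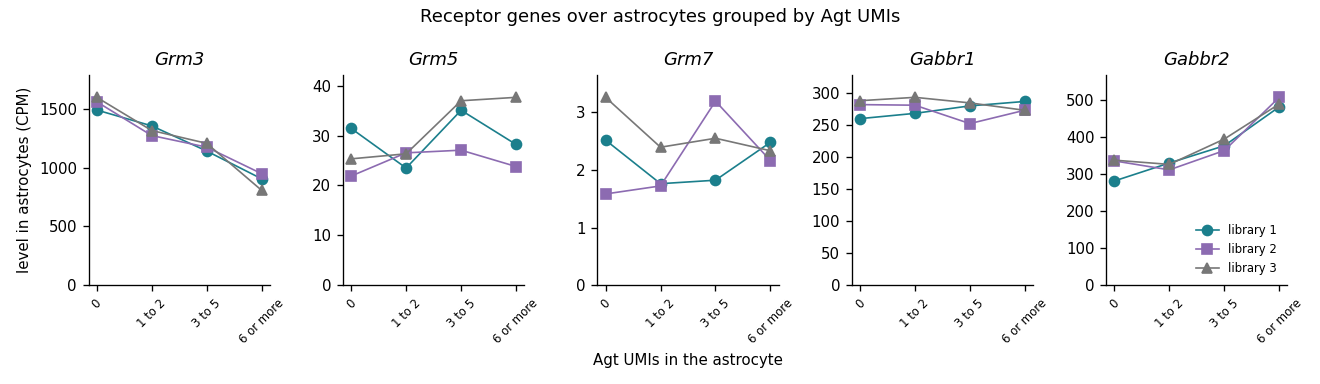
Level of the 5 receptor genes (vertical axes, CPM, each from 0) in astrocytes grouped by their Agt UMIs (horizontal axis), 1 line per library. Grm3 fell from 1549 to 886 CPM and Gabbr2 went from 319 to 494 CPM on average, while Gabbr1 was level and Grm7 stayed near 2 CPM.

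Depth, cell quality and the markers of astrocytes, neurons and oligodendrocyte precursors moved with the Agt groups, and their part in the differences was not tested. Median depth was 10306.5 UMIs per Agt-positive and 8936 per Agt-negative astrocyte. The 7 astrocyte markers summed to 5772 to 6024 CPM in Agt-positive and 4270.0 to 4772 CPM in Agt-negative astrocytes by library. Gja1 alone went from 1150.3 CPM at 0 Agt UMIs to 1623, 1769 and 1930.1 CPM at the later steps. Aqp4 went from 473 to 619 CPM at the first step and was then lower, at 604 and 591 CPM. The filter on genes or mitochondrial UMIs failed 29 of 3236 Agt-positive and 468 of 2813 Agt-negative astrocytes, whose median mitochondrial share was 1.92% and 2.44%. The 7 neuron markers summed to 8.09 to 8.27 CPM in Agt-positive and 18.3 to 33.0 CPM in Agt-negative astrocytes by library, with none at 0. Rbfox3 alone was at 9.33 ± 2.64 CPM (n = 3) at 0 Agt UMIs and at 0.593 ± 0.214 at 1 to 2. Snap25 was at 8.16 ± 3.04 and 2.96 ± 1.36 CPM there. The 3 oligodendrocyte precursor markers went the other way, at 37.0 to 39.2 CPM in Agt-positive and 28.2 to 30.9 CPM in Agt-negative astrocytes by library. Among cells of 8000 to 16000 UMIs the log2 difference of Grm3 was −0.72 and that of Gabbr2 0.48. Without cells with markers of other types (neuron, oligodendrocyte and its precursor), Grm3 was at −0.67 and Gabbr2 at 0.34, its lowest value in the 11 alternatives. With gene and mitochondrial filters, Grm3 was at −0.57 and Gabbr2 at 0.50. Thinned to 5000 UMIs, the mean was 4.60 Grm3 UMIs per Agt-positive and 7.62 per Agt-negative astrocyte, and 2.16 and 1.60 Gabbr2 UMIs. The share of thinned cells with both GABA-B subunit genes was 59.0% in Agt-positive and 48.8% in Agt-negative astrocytes, and the share with Gabbr1 was 72.8 ± 1.48% and 72.8 ± 1.23% (n = 3).

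The genes whose course over the 12 profiles was most like a member were found among 6907 other genes of at least 20 CPM. Those most like Grm3 were Gnao1, the alpha subunit of the Go protein (Pearson r = 0.99), Mgat5, an enzyme of N-glycan branching (0.99), and the membrane glycoprotein gene Gpm6b (0.98). Those most like Gabbr2 were the growth factor gene Pdgfd (0.99), Maoa, which encodes the monoamine-degrading enzyme MAO-A (0.98), and Kcnip4, a potassium channel interacting protein (0.98). Grm5 (best r 0.84, Actr8) and Gabbr1 (best r 0.87, Ccdc66) had no gene as close. All these r values describe 12 points that share libraries and were picked as the highest of many.

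Grm8, which encodes a further group III receptor, was counted at a low level, with 98 UMIs in astrocytes and 3 in pericytes, a CPM ratio of 4.17 (95% exact counting interval 1.39 to 20.6). In the fit it was higher in astrocytes by 2.25 on the log2 scale (standard error 0.77, adjusted p = 0.00940 from edgeR), which passed in 6 of 8 alternatives that tested it.

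The Gq arm, which group I receptors use, was split between the classes. Of 11 genes tested from 13 listed, 8 were higher and 3 lower in astrocytes, with a median log2 difference of 0.68 against 0.10 for all genes. Over all genes 42.8% were higher and 36.9% lower, and the counts of this and the following lists in the classes are to be read against these shares and the 79.6% called in all, and those in the Agt groups against 26.5%. Plcb1, the phospholipase C isoform, was at 860 CPM in astrocytes and 8.82 in pericytes (log2 difference 6.82), and the Homer scaffold genes Homer2 and Homer1 were higher by 5.32 and 2.03. On the pericyte side were Itpr1, an IP3 receptor of calcium stores, at 36.2 CPM in astrocytes and 620 in pericytes (log2 difference −3.89), Gna11 (−1.71) and Itpr2 (−0.98). In Agt-positive against Agt-negative astrocytes, 2 of 11 were higher, Prkca (0.28) and Plcb4 (0.20), 3 were lower, Homer2 (−0.34), Homer1 (−0.31) and Gnaq (−0.19), and 6 did not pass. Of the 11 alternatives, Plcb4 and Homer2 passed in 4, Homer1 and Gnaq in 8 and Prkca in 9.

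Of the 13 genes of Gi/o and G beta-gamma subunits, on which mGluR3, mGluR7 and GABA-B act, 4 were higher and 9 lower in astrocytes than in pericytes (median log2 difference −0.33). Gnao1 was at 747 CPM in astrocytes and 62.6 in pericytes (3.79), Gng12 was higher by 1.55 and Gng7 by 0.54. Gng2 was at 3.26 CPM in astrocytes and 318 in pericytes (−6.40), and Gnb4 differed by −5.82. In Agt-positive astrocytes 1 of the 13 was higher, Gnai2 (0.24), and 4 were lower, among them Gng2 (−2.55), Gnao1 (−0.53) and Gng7 (−0.37). The part of the neuron markers given above, which were higher in Agt-negative astrocytes, was not tested. Over the 11 alternatives Gng2 lay between −2.79 and −0.62 and Gnao1 between −0.74 and −0.51. Gnao1 passed in all 11, Gng2 in 10, Gnai2 in 9 and Gng7 in 7, and between the classes Gng7 passed in 9 of 11.

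Of 6 GABA-B partners tested, 3 were higher in astrocytes, 2 were lower and 1 did not pass, where 79.6% of all genes passed. Jakmip1, which binds the receptor and microtubules, had 2430 UMIs in astrocytes and 1 in pericytes (CPM ratio 310, 95% exact counting interval 55.7 to 12268). Its level was the same, at 26.6 and 0.0856 CPM, with a second gene model of the same symbol added. The auxiliary subunit gene Kctd8 had 152 and 2 UMIs (ratio 9.71, interval 2.64 to 80.9), and Kctd12 was higher in astrocytes by 1.30 on the log2 scale. Ajap1, whose protein binds the sushi domains of the Gabbr1 product as APP does, was at 0.0984 CPM in astrocytes and 124 in pericytes (log2 difference −9.99), and App itself at 33.7 and 582 CPM (−3.90). In Agt-positive astrocytes 3 of 5 tested were higher and 0 lower, Kctd12 (1.96), App (0.63) and Jakmip1 (0.53), and each passed in all 11 alternatives. Kctd12 was at 6.996 CPM in Agt-positive and 1.82 in Agt-negative astrocytes.

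Of the 4 GIRK channel genes, the potassium channels that GABA-B and other Gi/o receptors open, only Kcnj3 passed the filter, with 1452 UMIs in astrocytes and 3 in pericytes (ratio 61.8, interval 21.1 to 300.2). It was higher in Agt-positive astrocytes by 0.66 (standard error 0.13, adjusted p = 0.000386 from edgeR), at 20.1 against 13.0 CPM. Among the receptor scaffolds and trans-synaptic partners, 4 of 7 tested were higher in astrocytes, 1 lower and 2 did not pass. Elfn2, a postsynaptic partner of group III receptors, had 183 UMIs in astrocytes and 0 in pericytes, at least 7.79-fold higher against 3 counts over the class. The scaffold genes Shank3 and Shank1 were higher by 2.61 and 2.46 and Shank2 lower by 1.13, all at under 5 CPM in both classes. In Agt-positive astrocytes Shank3 was lower, at 1.94 against 4.16 CPM (log2 difference −1.04), which passed in 9 of 11 alternatives.

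**Figure D4:**
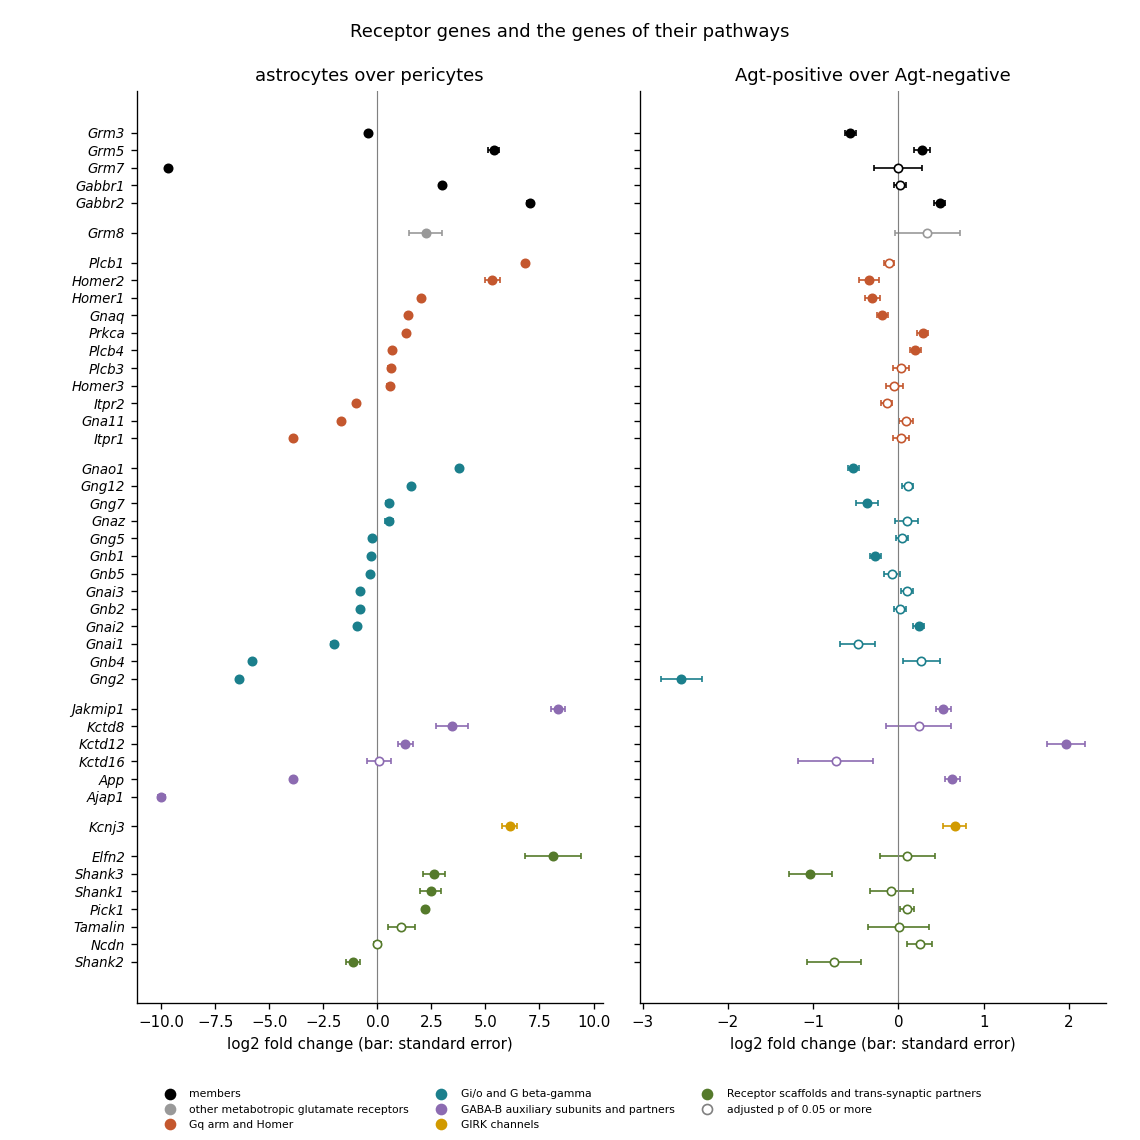
Log2 fold change (horizontal axes, bar: standard error) of the 5 receptor genes and of the tested genes of 6 pathway lists, in astrocytes over pericytes (left) and in Agt-positive over Agt-negative astrocytes (right), with filled points for an adjusted p under 0.05. Ajap1 and Grm7 lie farthest to the pericyte side at −9.99 and −9.70. Kctd12 at 1.96 and Gng2 at −2.55 lie farthest apart between the Agt groups. Bars are derived from the F statistic and may understate counting error at few UMIs.

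The behavioural groups were compared over mice, to ask whether fear conditioning or recall moved the receptor genes. Of 4449 barcodes with a single hashtag, 2993 belonged to a listed mouse and 1893 of these were astrocytes, 45 to 228 per mouse. No member passed the test. The astrocyte level of Grm3 was 1397 ± 120 CPM without shock (NoFC), 1316 ± 195 after conditioning (FC), 1271 ± 156 without recall (NoFR) and 1250.0 ± 87.2 after recall (FR; SD, n = 4 mice each). Grm5 was at 34.2 ± 18.6, 30.6 ± 15.6, 26.8 ± 5.31 and 26.6 ± 7.93 CPM, Gabbr1 at 273 ± 37.2, 281 ± 7.84, 277 ± 6.11 and 281 ± 7.56 CPM and Gabbr2 at 357 ± 23.0, 384 ± 78.5, 362 ± 31.3 and 377 ± 37.4 CPM, in the same order. For each of these genes the 4 groups overlapped. Grm7 had 1 to 13 UMIs per mouse and did not pass the filter on low counts.

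In edgeR's test of any difference between the 4 groups, 0 of 10140 genes (0%) passed an adjusted p of 0.05, 350 had an unadjusted p under 0.05, and DESeq2 gave 0. FC against NoFC, NoFR against NoFC and FR against NoFR also gave 0 genes each (393, 498 and 382 at an unadjusted p under 0.05), where DESeq2 gave 1, 0 and 0. The adjusted p was 0.998 for each of the 4 members tested for any difference. The 95% intervals below cover the spread between mice as assigned and not the assignment itself, which moved with the filters. Without the mitochondrial filter, NoFC mouse 1 went from 45 to 147 astrocytes and NoFC mouse 3 from 203 to 73. For FC over NoFC the log2 difference was −0.036 for Grm3 (95% interval −0.22 to 0.15), 0.057 for Gabbr1 (−0.13 to 0.25), 0.13 for Gabbr2 (−0.086 to 0.34) and −0.12 for Grm5 (−0.70 to 0.46). For NoFR over NoFC it was −0.17 for Grm3 (−0.36 to 0.027), and for FR over NoFR 0.013 (−0.18 to 0.20). For FR over NoFR it was 0.012 for Gabbr1 (−0.17 to 0.20) and 0.070 for Gabbr2 (−0.14 to 0.28). Strict hashtag calls gave 1.06 for Gabbr1 and 0.68 for Gabbr2. With the library term, these values rest on 1 FR mouse (12 astrocytes) against 1 NoFR mouse (10 astrocytes), both of library 3. They therefore cannot be set against the intervals over all mice. Grm5 had 13 to 106 UMIs per mouse, and its interval was the widest of those given here.

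In pericytes of the same mice, a comparison added after seeing the data, the Grm3 level of NoFC mice was 1686 ± 101 CPM, that of FC mice 1903 ± 156, that of NoFR mice 1984 ± 112 and that of FR mice 2021 ± 153 (n = 4 each). All 4 NoFC mice, at 1553 to 1794 CPM, lay below all NoFR mice (1887 to 2144) and all FR mice (1873 to 2198), and they overlapped with the FC mice. The test of any difference gave an adjusted p of 0.492 for Grm3 in edgeR, where 32 of 5789 genes passed. Grm3 thus did not pass, and the share of the 5789 genes with such a separation of mice was not counted. Pericytes were summed per mouse under the main hashtag setting alone, so the separation was not checked under other assignments. Grm7 was at 2266 ± 140, 1982 ± 419, 1943 ± 306 and 2125 ± 255 CPM in the same order, and its groups overlapped.

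**Figure D5:**
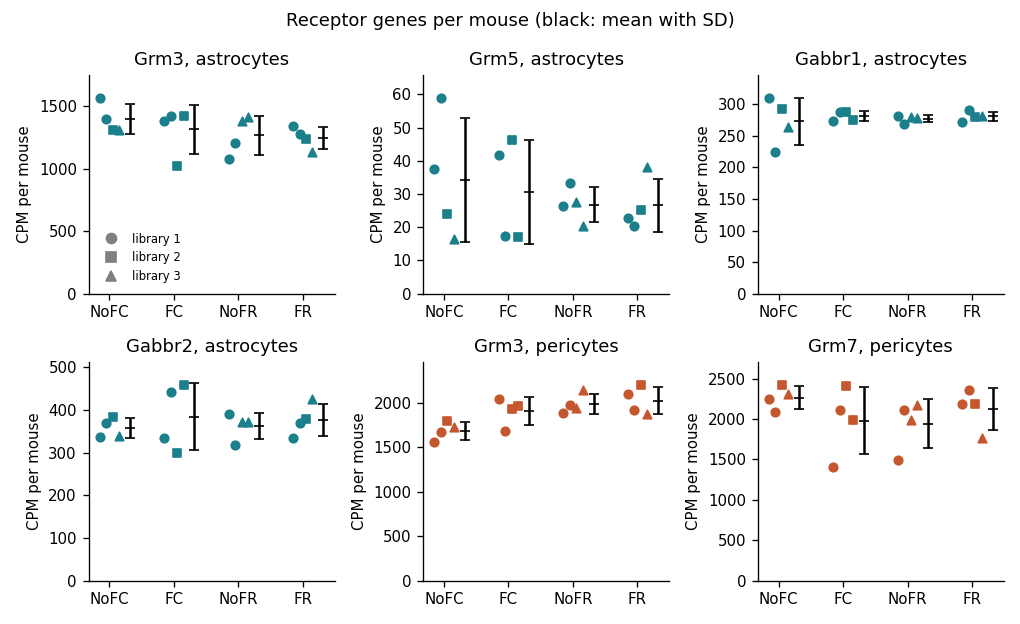
Level per mouse (vertical axes, CPM, each from 0) of 4 receptor genes in astrocytes and of Grm3 and Grm7 in pericytes, by group, with marker shape for the library and mean with SD in black (n = 4 mice each). The groups overlap for every gene in astrocytes, and Grm3 in the pericytes of NoFC mice lies at 1553 to 1794 CPM.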

How the data were processed

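Single-cell RNA-seq was made by the authors with 10x Genomics libraries, and reads were aligned to mm10 (GENCODE vM23) with Cell Ranger, version 3.0 per the labels and 7.0.0 per the file headers. Not given in the sources used here is whether intronic reads were counted. For each barcode the authors deposited raw UMI counts of genes and hashtags, and a table of the hashtag, library and group of each mouse, whose columns hold names and numbers, not measurements.

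From these counts, 3 libraries of 31700569 to 42350059 gene UMIs were read, and cells were classed by the UMI limits given above. The members and lists were chosen with earlier results of these data known. The 5 members were always named, and of each list up to 3 genes per direction with the largest change at an adjusted p under 0.05. Counts were summed per class and library, or per mouse after HTODemux (Seurat 5.3.0, positive quantile 0.99, at least 100 genes and under 6% mitochondrial UMIs, hashtags under 100 UMIs in a library dropped), and tested by edgeR 4.0.16 (TMM, filterByExpr, quasi-likelihood test, library as block, Benjamini-Hochberg over all genes tested). Only barcodes called singlets were kept for mice. DESeq2 1.42.0 was an alternative, with filters, depth windows, stricter classes and each library or mouse left out. Libraries and mice are the replicates, and classes within a library share its mice. Libraries 1 to 3 pool several mice each, so that the spread between libraries may be smaller than between mice. Standard errors are the absolute log2 difference over the square root of edgeR's F statistic. Intervals of log2 differences are the estimate with this standard error times the normal quantile. Intervals of shares, ratios and zero counts cover counting error only. On simulated counts the tests recovered 83% (classes), 87% (Agt groups) and 84% (mice) of genes changed 2-fold, and 74%, 73% and 43% of those changed 1.5-fold, over 15365, 14162 and 10140 genes. False calls made up 6.55%, 4.19% and 5.22% of the calls on simulated counts, in the same order. Each simulation changed 200 genes, used the trended dispersion and modelled neither library effects nor errors in the hashtag assignment of cells to mice. In the real class and Agt comparisons far more genes passed, 79.6% and 26.5% of those tested. Recovery in the real data may therefore be lower, and the share of false calls may differ. Coordinates are from GENCODE vM21 on the same build, matched by Ensembl ID. Levels are CPM of summed UMIs unless stated.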

Additional observations from a re-analysis of the deposited data

Results flagged for a closer look

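Of 28 groups of 4 mice in which a member had at least 3 UMIs in every mouse, 1 held a mouse that stood apart from the other 3. This was Grm3 in the astrocytes of FC mouse 3, of library 2, at 1026 CPM (554 UMIs), where the other FC mice were at 1385 to 1427 CPM. The gap was 0.895 of the range, above Dixon's critical value for 4 samples, which chance passes in about 5% of groups. Without this mouse the log2 difference of Grm3 for FC over NoFC turned from −0.036 to 0.038, and neither passed the test.

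The 2529 barcodes in neither class, which entered no comparison, also held members. Grm7 was at 674 CPM and Grm5 at 21.6 CPM there, the former between its level in pericytes (2203 CPM) and in astrocytes (2.29 CPM). These barcodes had a median of 761 UMIs, and 1545 of them failed the filter on genes or mitochondrial UMIs. Among them are the 101 barcodes with both marker sets, with a median of 15014 UMIs. Those 101 held 1093 of the 2905 Grm7 UMIs and 34 of the 93 Grm5 UMIs of the barcodes in neither class. Which cells the others hold was not tested.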

How the results depend on the processing

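The call and direction of Grm3, Grm7, Gabbr1 and Gabbr2 in astrocytes against pericytes, of Grm5 there, and of Grm3 and Gabbr2 between the Agt groups held in each of the 11 alternatives run. The number of genes called in astrocytes against pericytes lay between 11395 and 11750 with each library left out. Between the Agt groups it was 3747, against 1739 with DESeq2, 1686 in the depth window and 2409 to 4007 with each library left out, lowest without library 3. The pairing of the classes comes from the library both were captured in. Without the library as block, 12301 and 3303 genes were called in the class and Agt comparisons, and for Grm5 between the Agt groups the value was 0.26 (edgeR adjusted p = 0.153). For Grm5 there, the call was also lost with DESeq2 (0.28), scaling by summed UMIs (0.25), Agt of 6 or more (0.21), without cells with markers of other types (0.11), in the depth window (0.030) and without library 3 (0.13). No other call of a member changed. The cause was not tested.

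Values near 0 changed sign without passing the test. Grm7 between the Agt groups was 0.031 with DESeq2, 0.011 without the filter on low counts, 0.13 with gene and mitochondrial filters, 0.38 without cells with markers of other types, 0.42 in the depth window and −0.29 to 0.21 with each library left out. Gabbr1 was −0.0081 with summed UMIs, −0.083 without cells with markers of other types, −0.045 in the depth window and −0.056 to 0.068 with each library left out. For FC over NoFC, the hashtag quantile of 0.95 gave 0.088 for Grm3 and 0.21 for Grm5, and no mitochondrial filter gave −0.093 for Gabbr1. With each mouse left out, Grm3 was −0.10 to 0.038, Grm5 −0.44 to 0.34 and Gabbr1 −0.035 to 0.12. For NoFR over NoFC, Gabbr2 was −0.0020 without the filter on low counts and −0.070 to 0.055 with each mouse left out, Grm5 −0.79 to 0.033 and Gabbr1 −0.048 to 0.11. For FR over NoFR, Grm3 was −0.0038 without a library term, −0.069 at the quantile of 0.95, −0.040 without the mitochondrial filter and −0.58 with strict hashtag calls (at least 10 UMIs and 3 times the next), which also gave 1.06 for Gabbr1 and 0.68 for Gabbr2, and Gabbr1 was −0.086 at the quantile of 0.95. With each mouse left out, Grm3 was −0.10 to 0.12, Grm5 −0.40 to 0.32, Gabbr1 −0.013 to 0.027 and Gabbr2 −0.030 to 0.14.

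Without the filter on low counts, 71 genes differed in any way between the groups, 13 for FC over NoFC, 30 for NoFR over NoFC and 29 for FR over NoFR. DESeq2 gave 1 for FC over NoFC, strict hashtag calls 52 for FR over NoFR, and pericytes in place of astrocytes 32 in any way. Pericytes and the scaling by summed UMIs were chosen after seeing the data. With each mouse left out the counts were 0 to 4, 0 to 0, 0 to 3 and 0 to 4. Strict calls left 0 NoFC mice with at least 10 astrocytes, so that only FR over NoFR was run. With the library term this contrast rests on 1 FR mouse against 1 NoFR mouse, both of library 3. Its number of genes called is therefore not given. Per mouse, Grm7 in astrocytes (1 to 13 UMIs) and Grm5 and Gabbr2 in pericytes (0 to 5 and 0 to 3) were too shallow to compare between groups.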
